A study of Mus musculus with 6 samples.

Results

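Splenic B cells carry the enzymes and adaptors that pass on the signal of the B cell receptor (BCR), and 9 genes of this proximal machinery were followed here through RNA sequencing of activated B cells from *Tent5c* KO and WT mice. The genes are the kinases *Lyn*, *Syk*, *Btk* and *Prkcb*, the adaptors *Blnk* and *Pik3ap1*, the phospholipase *Plcg2*, the exchange factor *Vav1* and the phosphatase *Ptpn6*. They were chosen by name for their place in the pathway, with earlier results of these data known. They are 9 of the 54446 genes in the deposited values. None of the 9 passed the test for a difference between the genotypes, set against the spread between littermate pairs. The levels, the spread between pairs and the order of the genes are described below, followed by 150 other genes of the pathway.

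TENT5C is a cytoplasmic poly(A) polymerase, and the comparison asks which transcripts change in level when it is lost. There were 6 libraries of total RNA, 3 of cells labelled TENT5C KO and 3 of cells labelled wild type (WT), from young adult mice of both sexes on a mixed C57BL/6J X CBA background. The KO was constitutive, so every cell of the animal carries it. Naive B cells were taken from the spleen by negative selection, in which other cells are bound and removed, and all 6 cultures received the same activators, 20 ng/ml of the cytokine IL-4 and 20 µg/ml of lipopolysaccharide (LPS) for 7 days. Each replicate number, given as the batch in the labels, is a KO and a WT littermate from heterozygous parents and is called a pair here. LPS acts through a Toll-like receptor and IL-4 through its own receptor, and neither the labels nor the methods name an antigen or an antibody to the BCR in these cultures.

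The BCR is a membrane immunoglobulin held together with the CD79A and CD79B chains, whose tails carry the tyrosines that start the signal. LYN phosphorylates these tyrosines, SYK docks on them, and SYK then phosphorylates BLNK, the scaffold on which BTK and PLCG2 meet. PLCG2 makes the messengers that release calcium and recruit PRKCB, the protein kinase C that leads to NF-kB, while PIK3AP1 brings in PI 3-kinase and VAV1 activates Rac GTPases. PTPN6 (SHP-1) takes the phosphates off again when inhibitory receptors such as CD22 recruit it, and LYN serves both arms because it also phosphorylates those receptors.

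The libraries held between 5393558 and 6793520 fragments on genes, the fewest in WT library 3. *Tent5c* itself (chr3:100451628-100489324, GRCm38) did not separate the labels: the values were 1993, 993 and 1170 normalized counts in KO libraries 1 to 3 and 1255, 767 and 1584 in the WT libraries, with a log2 fold change of 0.20 (limma, adjusted p = 0.970). By the authors' methods the same guide RNA served for the KO and for a catalytic mutant of *Tent5c*. What change the KO carries is not described in the sources used here. The genotypes are therefore those of the labels, and "KO" and "WT" below stand for the libraries labelled so. Markers of B cells were high in all 6 libraries. Their sum over 10 genes, *Cd79a* and *Ms4a1* among them, was 36173 to 41573 normalized counts in KO and 34534 to 39531 in WT. The sum of 10 plasma cell markers, *Sdc1* and *Prdm1* among them, was 11334 to 20063 in KO and 11306 to 23778 in WT. Markers of other cells were sparse, with sums of 52.3 to 134 for T cells, 23.0 to 87.2 for NK cells, 165 to 305 for myeloid cells, 0 to 10.4 for neutrophils and mast cells and 11.5 to 27.4 for erythroid cells and platelets. *Adgre1* was at 14.3 to 37.8, *Cd3e* was at most 4.82, *Csf1r* at most 4.82, *Ncr1* at most 3.63, and *S100a8* and *Hbb-bs* were listed at 0 in all 6 libraries. In such bulk samples, fewer cells of a type and less RNA per cell cannot be told apart.

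The deposited values are counts of fragments divided by a size factor for each library (normalized counts), which can be compared between libraries for a gene. Between genes they were divided by the length of the exons in kilobases. All 9 genes passed the filter of a mean of 10 normalized counts and were among the 12322 genes tested, with 388 (*Btk*, WT library 3) to 2813 (*Ptpn6*, KO library 3) fragments per library. The comparison of KO and WT used limma on log2(normalized count + 1), the pair being a block, and p-values were adjusted over all 12322 genes (Benjamini-Hochberg). The log2 fold changes below are on this scale, KO minus WT, with 95% confidence intervals.

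*Lyn*, the Src family kinase that starts the signal (chr4:3678115-3813122, plus strand), had 577, 531 and 633 normalized counts in KO libraries 1, 2 and 3 and 629, 514 and 478 in the WT libraries. The groups overlapped, and the littermates went different ways, with log2 ratios of -0.13, 0.046 and 0.40 in pairs 1, 2 and 3. The log2 fold change was 0.11 (-0.15 to 0.37; adjusted p = 0.970 in limma). An antisense transcript, *Gm26857*, overlaps 248 bases of the *Lyn* exons, and the counting used strand.

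*Syk* (chr13:52583173-52648792, plus strand), the kinase that docks on the phosphorylated receptor chains, had 1270, 1115 and 1370 normalized counts in KO and 1171, 1218 and 858 in WT. It had the widest range of the 9 genes, 0.67 on the log2 scale from lowest to highest library, and that range lay within pair 3, between the lowest library (WT 3) and the highest (KO 3). The log2 ratios of pairs 1, 2 and 3 were 0.12, -0.13 and 0.67, and the mean over libraries was 1252 ± 128 in KO and 1083 ± 195 in WT (SD, n = 3). The log2 fold change of 0.22 (-0.12 to 0.57) was the largest of the 9 and did not pass (limma, adjusted p = 0.970). Without pair 3 it was -0.0049, so its direction rested on that pair.

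*Btk* (chrX:134542336-134583570, minus strand), the Tec family kinase that activates the phospholipase, was at 427, 396 and 388 normalized counts in KO and 403, 460 and 467 in WT. KO was higher in pair 1 and lower in pairs 2 and 3, with log2 ratios of 0.081, -0.22 and -0.27. Its log2 fold change of -0.13 (-0.36 to 0.090) was the lowest of the 9 and did not pass either (limma, adjusted p = 0.970).

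*Prkcb* (chr7:122288751-122634402, plus strand), the protein kinase C that links the lipid messenger to NF-kB, had 1005, 1033 and 934 normalized counts in KO and 979, 1154 and 728 in WT. Both the highest and the lowest value were WT libraries, and the KO values lay between them. The SD of the WT libraries was 214 normalized counts against 51.0 in KO (n = 3 each). The log2 fold change was 0.079 (-0.17 to 0.33; adjusted p = 0.970 in limma), and it was -0.061 without pair 3.

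Of the adaptors, *Blnk* (chr19:40928927-40994535, minus strand), the scaffold for BTK and PLCG2, had 1062, 897 and 1035 normalized counts in KO and 962, 1032 and 1007 in WT. The WT values fell within the KO range, and the log2 fold change of -0.0067 (-0.20 to 0.19; adjusted p = 0.996 in limma) was the nearest to 0 of the 9. *Pik3ap1* (chr19:41272377-41385102, minus strand), which encodes the adaptor for PI 3-kinase also known as BCAP, had 649, 728 and 876 in KO and 693, 758 and 690 in WT. Its KO library 3 stood above the other 5 and its KO library 1 was the lowest. The log2 fold change was 0.064 (-0.18 to 0.30; adjusted p = 0.974 in limma), and -0.076 without pair 3.

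*Plcg2* (chr8:117498291-117635142, plus strand), the phospholipase C of B cells, had 1725, 1671 and 1876 normalized counts in KO and 1500, 1859 and 1790 in WT. KO was higher in pairs 1 and 3 and lower in pair 2, and the log2 fold change was 0.039 (-0.16 to 0.23; adjusted p = 0.982 in limma). *Vav1* (chr17:57279100-57328031, plus strand), the exchange factor for Rac, had 1050, 1056 and 1097 in KO and 1080, 1101 and 1156 in WT. The libraries of *Vav1* lay closest together of the 9, within 0.14 on the log2 scale. It was also the only gene of the 9 that was lower in KO in all 3 pairs, at log2 ratios of -0.041, -0.060 and -0.076, where 13.1% of all genes tested were lower in all 3 pairs and 11.7% higher in all 3. Those ratios are about the size of the counting error of a ratio at this depth, at most 0.066 for *Vav1*, and the KO and WT values still overlapped, since KO library 3 lay above WT library 1. The log2 fold change was -0.059 (-0.20 to 0.084; limma, adjusted p = 0.970).

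*Ptpn6* (chr6:124720707-124738714, minus strand), the phosphatase that dampens the signal, was the most abundant of the 9 with 2272, 2411 and 2554 normalized counts in KO and 2408, 2506 and 2165 in WT. KO was the lower littermate in pairs 1 and 2 and the higher in pair 3. The log2 fold change was 0.033 (-0.16 to 0.22; adjusted p = 0.984 in limma), and -0.070 without pair 3. An antisense gene, *Gm20531*, overlaps 195 bases of its exons.

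**Figure D1:**
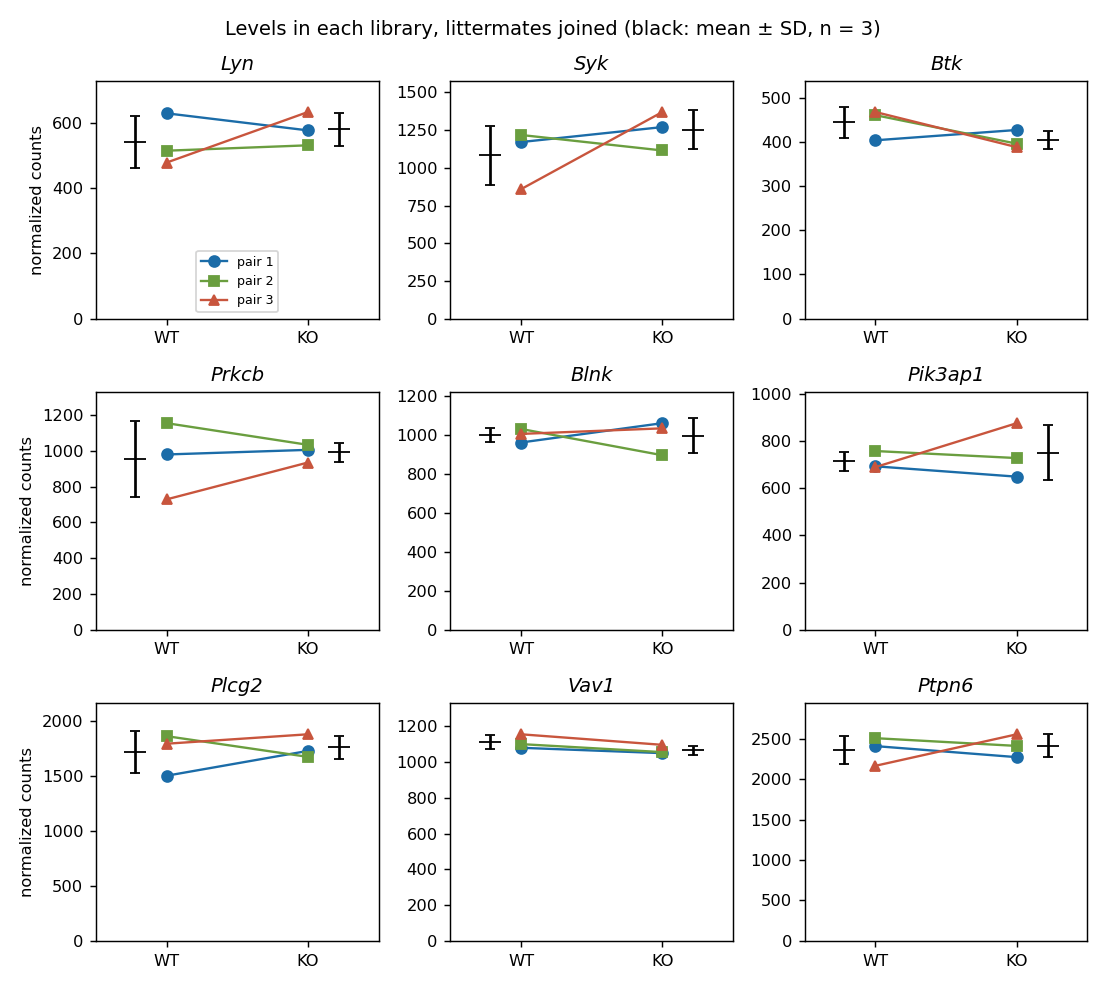
Normalized counts of the 9 genes in each library (y axis, from 0; x axis, WT and KO), with littermates joined by a line and the mean ± SD of the 3 libraries in black. Values of KO and WT overlap for all 9 genes, and in *Syk*, *Lyn*, *Prkcb* and *Ptpn6* the lowest point is the WT library of pair 3.

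Set beside all genes, the 9 were close to the middle of the data. None of them had an adjusted p under 0.05 in limma, as held for 0% of all genes tested. None had an unadjusted p under 0.05, which 3.03% of all genes had with lower and 1.67% with higher values in KO. None had KO and WT values that did not overlap, against 3.44% of all genes apart with KO lower and 3.39% with KO higher. In DESeq2 on the recovered fragments none of the 9 was called, against 0.285% of the 8413 genes that received an adjusted p-value there (23 lower, 1 higher). By direction, 6 of the 9 log2 fold changes were above 0 and 3 below, and their median was 0.039 against 0.00067 over all genes tested.

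The intervals give the size of change these libraries leave room for. Over the 9 genes the bounds reached from 0.780 times the WT level (*Btk*) to 1.48 times (*Syk*). For *Vav1*, with the least spread, the bounds were 0.870 and 1.06 times the WT level. An absence of a difference within these bounds is not shown.

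**Figure D2:**
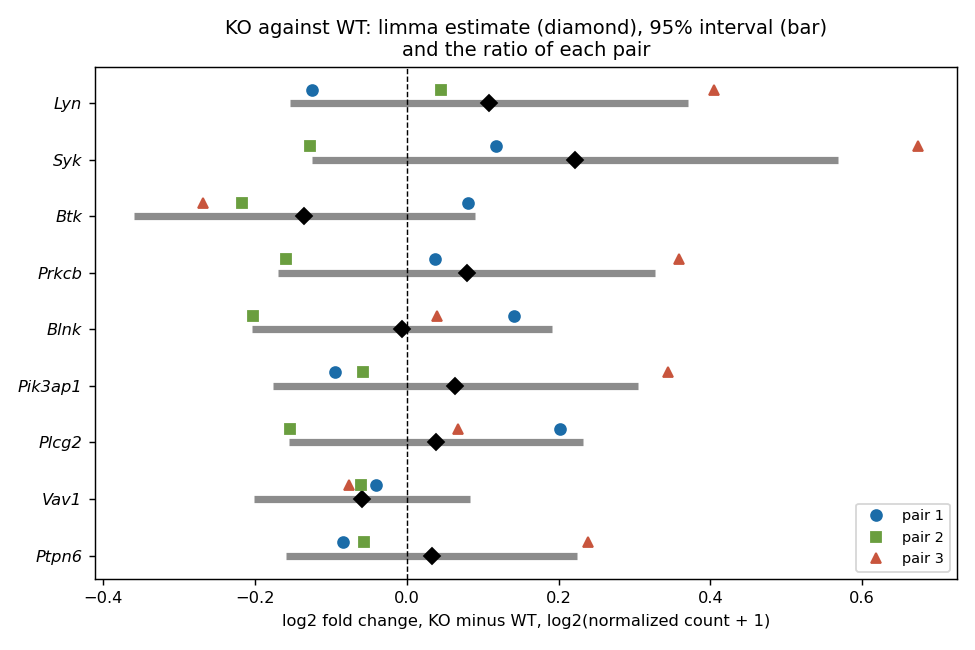
Log2 fold change of each gene, KO minus WT on log2(normalized count + 1) (x axis), with the limma estimate as a diamond, its 95% interval as a bar and the 3 pair ratios as coloured points. All 9 intervals include 0, and pair 3 is the highest point for *Lyn*, *Syk*, *Prkcb*, *Pik3ap1* and *Ptpn6* but the lowest for *Btk* and *Vav1*.

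The direction of the difference changed from pair to pair. In pair 1, 4 of the 9 genes were lower in KO, in pair 2 it was 8 of 9, and in pair 3 it was 2 of 9. The median log2 ratio of the 9 genes was 0.037, -0.13 and 0.24 in pairs 1, 2 and 3. That of all genes tested stayed within 0.01 of 0 in each pair, where the scaling of the libraries puts it. The SD of the log2 ratio over the 3 pairs had a median of 0.19 over the 9 genes and 0.19 over all genes. These medians cover unlike levels, since all 9 genes lay above 78% of the genes tested per kilobase of exon. Among the 9 genes the SD ran from 0.018 for *Vav1* to 0.41 for *Syk*.

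The libraries of pair 3 held most of the extreme values. WT library 3 was the lowest of the 6 for *Syk*, *Lyn*, *Prkcb* and *Ptpn6* and the highest for *Btk* and *Vav1*. KO library 3 was the highest for *Syk*, *Lyn*, *Pik3ap1*, *Plcg2* and *Ptpn6*. The same WT library had the lowest B cell marker sum (34534 normalized counts) and the highest plasma cell marker sum (23778). The KO/WT log2 ratios of the B cell marker sum were -0.11, -0.099 and 0.27 in pairs 1, 2 and 3, and those of the plasma cell marker sum were 0.41, 0.0035 and -0.70. Among the B cell markers, the transcription factor genes *Pax5* (1334) and *Ebf1* (368) were lowest in that library, and among the plasma cell markers *Jchain* (8096) was highest there. The part of these shifts in the values of the 9 genes was not tested. With WT library 3 left out and no block, the log2 fold change of *Syk* was 0.063, those of *Prkcb* and *Ptpn6* were -0.10 and -0.028, and the median of the 9 was -0.0019.

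Immunoglobulin genes, whose transcripts make up much of the RNA of secreting cells, are given for comparison. Over the 201 immunoglobulin genes tested, the median log2 ratio was -0.32, -0.63 and -1.34 in pairs 1, 2 and 3, below 0 in each, and 0 of these genes passed the adjusted threshold in limma, with 144 at an unadjusted p under 0.05.

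**Figure D3:**
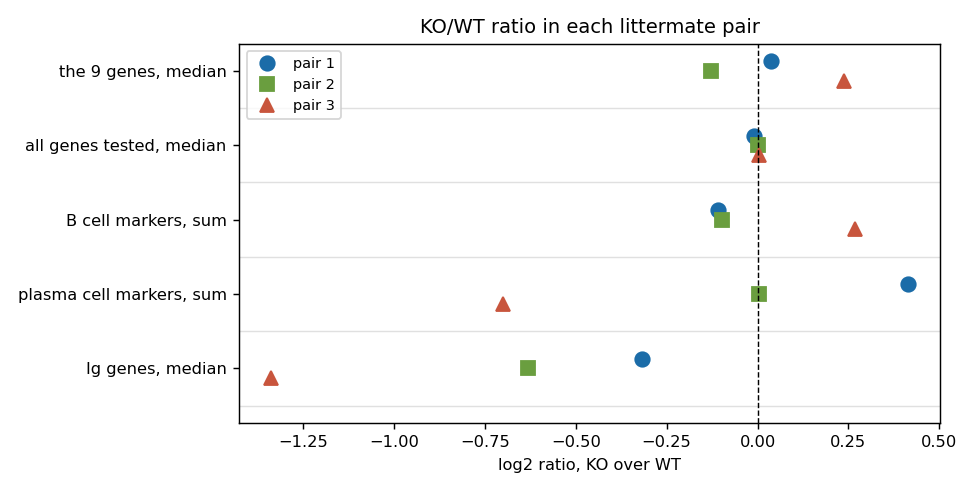
KO/WT log2 ratio (x axis) in each of the 3 littermate pairs for the median of the 9 genes, the median of all 12322 genes tested, the summed B cell and plasma cell markers and the median of 201 immunoglobulin genes. In pair 3 the 9 genes and the B cell markers lie above 0 and the plasma cell markers and immunoglobulin genes below it.

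Per kilobase of exon, the 9 genes fell into a fixed upper order and a lower group with little between its members. *Ptpn6* led with a mean of 852 normalized counts per kilobase (773 to 912 over 6 libraries), a level above 96.6% of the genes tested. *Plcg2* followed with 404, *Vav1* with 296 and *Blnk* with 167, and each stood above the next, down to *Lyn*, in 6 of 6 libraries. The other 5 genes had means of 138 (*Lyn*), 134 (*Btk*), 131 (*Pik3ap1*), 127 (*Prkcb*) and 125 (*Syk*). Between these neighbours the order was kept in 2 to 4 of the 6 libraries, so their levels did not differ beyond the spread. The lowest of the 9, *Syk*, was still above 78% of the genes tested. The exon lengths come from a later annotation release than the one used for counting and include all annotated exons of a gene, which lowers the values of genes with long rarely used exons.

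The relatives of the 9 genes, by gene family, show which member of each family these B cells held most. Among the Src family kinases, *Blk* (248 normalized counts per kilobase) was above *Lyn* (138) in 6 of 6 libraries, *Fyn* (146) was above it in 3 of 6, and *Lck* (41.2) was below it in all 6. *Zap70*, the counterpart of *Syk* in T cells, was at 1.02 per kilobase against 125 for *Syk*. *Tec* (109) was below *Btk* (134) in 5 of 6 libraries, and *Bmx* was listed at 0.

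*Plcg2* was far above *Plcg1* (404 against 30.6 per kilobase), and *Ptpn6* above *Ptpn11* (852 against 75.8), in 6 of 6 libraries. *Vav1* (296) was above *Vav2* (236) and *Vav3* (35.4) in all 6 as well. Before division by length *Vav2* (1557 to 1677 normalized counts) was above *Vav1* (1050 to 1156), so their order rests on the exon lengths. In other families the gene followed here was not the highest. *Prkcd* (280 per kilobase), a protein kinase C known to hold back B cells that recognize self, exceeded *Prkcb* (127) in 6 of 6 libraries. *Lcp2* (205), which encodes the scaffold SLP-76, exceeded *Blnk* (167) in 6 of 6. Before division by length the mean of *Lcp2* was below that of *Blnk* (915 against 999 normalized counts). *Bank1*, an adaptor related to *Pik3ap1*, was at 60.1 against 131 and below it in 6 of 6, with log2 ratios of -0.11, -0.38 and 1.02 in the pairs. None of the relatives tested had an adjusted p under 0.05 in limma.

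**Figure D4:**
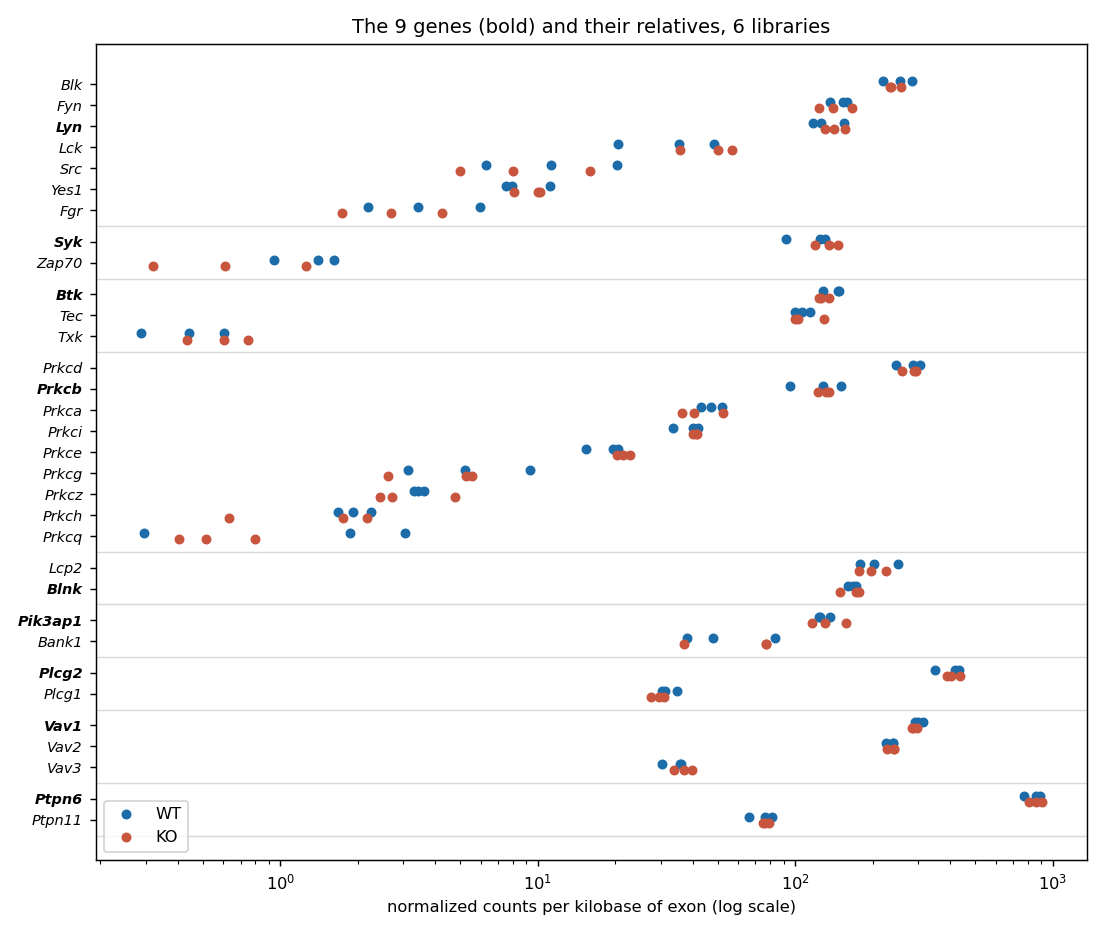
Normalized counts per kilobase of exon (x axis, log scale) of the 9 genes (bold) and members of their families in the 3 WT and 3 KO libraries. *Bmx* and *Clnk* are listed at 0 and are not drawn. KO and WT points overlap for the 9 genes, and *Blk*, *Prkcd* and *Lcp2* lie to the right of *Lyn*, *Prkcb* and *Blnk*.

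Genes whose profile over the 6 libraries was most like that of *Syk*, the member of widest range, were found by the root-mean-square difference of centred log2 values. They were *Tmc4*, *Dennd4a*, *Fchsd2*, *Nfkbiz* and *Tepsin*, with differences of 0.043 to 0.059. All 5 had their lowest value in WT library 3 and their highest in KO library 3, as *Syk* had. Their choice by likeness over these same 6 libraries makes such sharing likely. For *Dennd4a* those values were 1898 and 2854 normalized counts, and for *Nfkbiz*, an atypical NF-kB inhibitor family gene, 229 and 386. *Tmc4* was at 9.63 to 17.3 normalized counts, so its likeness rests on few fragments.

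Promoter sequence was looked at because 2 of the 9 genes share a motif at the same place. The letters GAGGAA, searched on both strands, are the core of sites that PU.1 and Spi-B bind, ETS family factors of B cells. RefSeq gives starts for 8 of the 9 genes (*Lyn* has no entry in the table used), *Syk* with 2 starts. In the 250 bases before the start, 3 of 9 windows held the motif, those of *Vav1*, *Pik3ap1* and the later start of *Syk*, against 23.3% of the 32851 windows of all genes. In *Vav1* and *Pik3ap1* it begins 11 bases before the start. Only 4 of the 8 genes, these 2 among them, had a RefSeq start within 50 bases of the annotated gene start. The later start of *Syk* lay 13709 bases from the annotated gene start. For *Blnk*, *Prkcb* and the earlier start of *Syk*, all 100 bases before the RefSeq start were annotated exon. Before the later start of *Syk*, 29 of the 100 bases were. The 100 bases before the RefSeq start (GRCm38.p6), at chr17:57279000-57279099 on the plus strand for *Vav1* and chr19:41385103-41385202 on the minus strand for *Pik3ap1*, are given 5′ to 3′ with the motif in capitals, and hold no annotated exon base.
Vav1: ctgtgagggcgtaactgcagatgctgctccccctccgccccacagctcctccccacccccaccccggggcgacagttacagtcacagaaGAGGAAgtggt
Pik3ap1: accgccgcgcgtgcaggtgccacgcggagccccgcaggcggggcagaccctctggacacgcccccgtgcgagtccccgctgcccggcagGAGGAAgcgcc
The motif stands at the same distance in both. The log2 ratios of pairs 1, 2 and 3 were -0.041, -0.060 and -0.076 for *Vav1* and -0.094, -0.058 and 0.34 for *Pik3ap1*. The 2 genes differed in direction in pair 3 only, and a link between the motif and the levels was not tested. *Spib*, the gene of Spi-B, was at 1403 to 1730 normalized counts in KO and 1412 to 1760 in WT.

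The rest of the pathway was described with 11 lists of 150 genes, of which 141 were tested. In limma 65 had values below 0 and 76 above, with a median log2 fold change of 0.015, and none passed the adjusted threshold in limma or DESeq2. At an unadjusted p under 0.05, 4 genes were lower (of 141, beside 3.03% of all genes) and 6 were higher (beside 1.67%). KO was lower in all 3 pairs for 17 of the 141 genes (beside 13.1% of all genes tested) and higher in all 3 for 20 (beside 11.7%). The values of the 2 groups did not overlap for 7 genes with KO lower (beside 3.44%) and 5 with KO higher (beside 3.39%). As a share of the 141, the 6 genes higher at an unadjusted p under 0.05 were above the 1.67% of all genes. The 7 genes apart with KO lower and the 20 higher in all 3 pairs were also above the shares of all genes. The other counts were near or below those shares, and no test of the lists was run.

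At the receptor itself, 7 of 8 genes were tested. *Ighm*, the heavy chain of the IgM receptor and of secreted IgM, had 57062, 15221 and 35536 normalized counts in KO and 60334, 19386 and 55042 in WT, a log2 fold change of -0.35 (adjusted p = 0.970 in limma). KO was the lower littermate in all 3 pairs, and the groups overlapped. *Cd79a*, the signalling chain, had 1219, 1320 and 1398 in KO and 1531, 1611 and 1405 in WT, so that every KO value was below every WT value (log2 fold change -0.21; adjusted p = 0.970 in limma). *Cr2*, the complement receptor that lowers the threshold of the BCR, went the other way, with 96.3, 64.8 and 59.9 in KO and 66.1, 38.7 and 25.3 in WT (log2 fold change 0.83; adjusted p = 0.737 in limma). KO was higher in each pair. All 3 had an unadjusted p under 0.05, and none passed the adjusted threshold.

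Among the other kinases and adaptors, no gene passed the adjusted threshold. Of 9 other kinases tested, none had an unadjusted p under 0.05. *Lck* had the smallest p of them (log2 fold change 0.51), *Fyn* was at -0.068, and *Csk*, which holds Src kinases inactive, was the most abundant at 1435 to 1691 in KO and 1471 to 1706 in WT. Of 16 other adaptors, *Shc1* (379, 381 and 410 in KO and 453, 419 and 514 in WT) and *Dapp1* (402, 423 and 451 in KO and 445, 492 and 506 in WT) were lower at an unadjusted p under 0.05. Their log2 fold changes were -0.24 and -0.18. *Shc1* values did not overlap, whereas the highest KO value of *Dapp1* lay above its lowest WT value. *Lat2* had a log2 fold change of -0.13, and *Grb2* was at 969 to 1100 in KO and 932 to 1200 in WT.

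Around PI 3-kinase and the phosphatases, *Pik3cd*, the catalytic subunit that B cells rely on, had 1450, 1287 and 1425 normalized counts in KO and 1313, 1236 and 1308 in WT (log2 fold change 0.11). *Pik3cg* varied more, from 80.1 to 289 in KO and 47.0 to 141 in WT, and *Pik3r1* had a log2 fold change of -0.10. *Ptpn22*, a phosphatase that acts on Src kinases, was higher in KO in each pair (397, 169 and 261 against 298, 155 and 213; log2 fold change 0.27, unadjusted p under 0.05, adjusted p = 0.970 in limma). The others of the 12 phosphatases had unadjusted p-values above the threshold, *Ppp3r1* (-0.12) and *Ptpn12* (0.19) next in order, and *Ptprc*, which encodes CD45, was at 4693 to 5377 in KO and 4628 to 5406 in WT. None of the 10 inhibitory receptors tested had a p under 0.05. *Cd22*, the receptor that recruits SHP-1, had 2844, 3217 and 3561 in KO and 2795, 3278 and 2770 in WT, with the widest gap between littermates in pair 3, as for *Ptpn6*. *Fcrl5* (4.77 to 11.8 in KO, 12.0 to 38.7 in WT) and *Pirb* had few fragments.

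Downstream, no exchange factor, GTPase or cytoskeleton gene of 17 had an unadjusted p under 0.05. *Rasgrp3* (-0.18) and *Rhoa* (-0.093) were among those with the smallest p-values. *Dock2* had the highest normalized counts of the list, 3694 to 4112 over the 6 libraries. Per kilobase of exon, *Cdc42* (1122) and *Rac2* (819) were above *Dock2* (338). Of the 12 calcium and lipid messenger genes, none had a p under 0.05, *Dgka* coming nearest (0.24), followed by *Itpr3* (0.15) and *Itpkb* (-0.11). The calcium channel *Itpr1* was the most abundant, at 1978 to 2151 in KO and 1854 to 2069 in WT.

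Among the 15 genes from protein kinase C to NF-kB, *Tab2* was higher in KO in each pair (670, 640 and 626 against 616, 572 and 519; log2 fold change 0.18, unadjusted p under 0.05), and its groups did not overlap. *Map3k7*, which encodes the TAK1 kinase that TAB2 binds, had a log2 fold change of -0.13 and *Prkce* of 0.22, neither with a p under 0.05. Of the 11 MAP kinase genes, *Braf* had 789, 768 and 742 in KO and 706, 659 and 637 in WT, every KO value above every WT value (0.20, unadjusted p under 0.05, adjusted p = 0.970 in limma). *Map3k1* and *Mapk8* followed at 0.11 each, and *Map2k1* was the most abundant at 1806 to 1978 over the 6 libraries.

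The 17 targets of receptor signalling that were tested are genes that rise when the BCR is engaged. No BCR ligand was named for these cultures, and which signal set the levels of these genes was not tested. The 17 had the highest median of the 11 lists, 0.11, with 14 above 0 and 3 below. Of all 12322 genes, 6187 were above 0. The KO/WT log2 ratios of their summed level were -0.015, -0.039 and 0.24 in pairs 1, 2 and 3, so the sum was higher in KO in pair 3 only. *Nfkbia*, the NF-kB inhibitor that NF-kB itself induces, had 1948, 1911 and 1830 normalized counts in KO and 1729, 1764 and 1406 in WT, without overlap (0.22, unadjusted p under 0.05, adjusted p = 0.970 in limma). *Junb* had 1509, 1386 and 1486 in KO and 1391, 1292 and 1261 in WT (0.15, unadjusted p under 0.05), and *Cd69* followed at 0.13. *Cd83*, the most abundant, had a log2 fold change of -0.029. For *Nfkbia* and *Junb* the lowest value was again WT library 3, and none of the 17 passed the adjusted threshold.

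**Figure D5:**
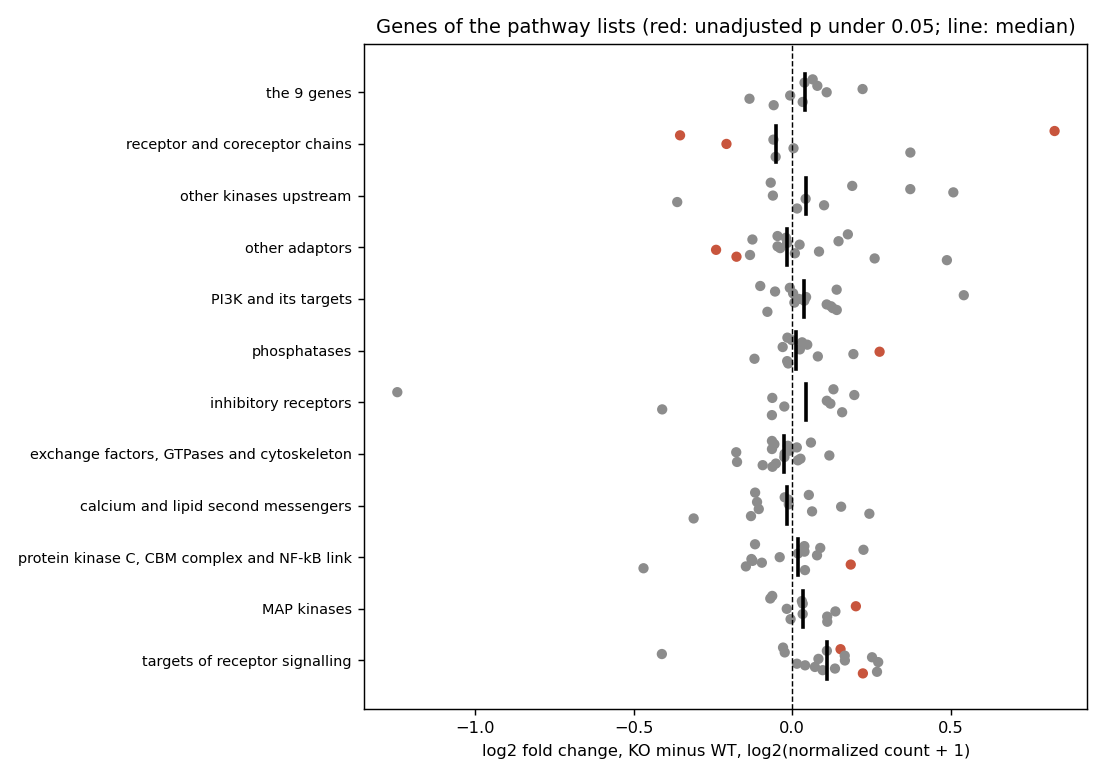
Log2 fold change, KO minus WT on log2(normalized count + 1) (x axis), of the 9 genes and of the tested genes of 11 pathway lists, with unadjusted p under 0.05 in limma in red and the list median as a line. None of the points passed the adjusted threshold, and the 9 genes lie between -0.13 and 0.22.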

How the data were processed

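Trimming with cutadapt, alignment with STAR 2.6.1a to GRCm38 and strand-specific counting of properly paired fragments over exons with featureCounts (Subread 1.6.3, Gencode vM19, a filter on mapping quality) were done by the authors. They then divided the counts by the size factors of DESeq2. What they deposited is a signal in units of normalized counts, for 54446 genes. This scaling sets library medians equal, so a change shared by most transcripts is not seen. ERCC spike-in RNA was added to the libraries, but the values analysed hold 0 ERCC entries.

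Whole fragments were recovered (100% of values came out whole within a tolerance of 0.001), and 54409 identifiers matched Gencode vM21, used for positions and exon lengths. The test was limma 3.58.1 (R 4.3.3, lmFit and eBayes with trend, two-sided) on log2(normalized count + 1), over genes whose mean reached 10, with the pair as a block and a Benjamini-Hochberg threshold of 0.05. Pairing comes from the littermates, and same-numbered libraries deviated together (correlations of 0.328, 0.685 and 0.170). The recovered fragments were also tested with edgeR 4.0.16, which called 0 genes, and with DESeq2 1.42.0, which called 24. The fits were tested on simulated data. The exact permutation test over 3 pairs cannot go below p = 0.25 and was not used. Counting errors cover counting error only.

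The 9 genes and the lists were chosen with earlier results of these data known. The text names the 9 genes, *Tent5c*, and from each pathway list the 3 genes of smallest p and the gene of highest mean normalized count. It also names defining markers or those at 0, and the 5 genes most like the member of widest range. The gene families, *Pax5*, *Ebf1*, *Jchain*, *Spib* and the promoter motif were chosen after their values or sequences were seen. Some genes that this rule or the gene families would name are not reported here.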

Additional observations from a re-analysis of the deposited data

How the results depend on the processing

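None of the 9 genes passed the adjusted threshold under any of the 12 other settings or the 1 added after seeing the data (without WT replicate 3, no replicate block), the lowest adjusted p being 0.792 for *Btk* without pair 1. Directions turned mainly when a pair was left out. Without pair 3, log2 fold changes were -0.040 (*Lyn*), -0.076 (*Pik3ap1*), -0.061 (*Prkcb*), -0.070 (*Ptpn6*) and -0.0049 (*Syk*), without pair 2 *Blnk* was at 0.091 and without pair 1 *Plcg2* at -0.043. Without WT replicate 3, *Prkcb* was at -0.10 and *Ptpn6* at -0.028, and quantile normalization put *Blnk* at 0.0045. *Btk* and *Vav1* stayed below 0 under all alternatives, between -0.24 and -0.068 and between -0.068 and -0.031. With a replicate left out, *Blnk* ranged from -0.081 to 0.091, *Lyn* from -0.040 to 0.22 and *Pik3ap1* from -0.076 to 0.14. In the same fits *Plcg2* ranged from -0.043 to 0.13, *Prkcb* from -0.061 to 0.20, *Ptpn6* from -0.070 to 0.091 and *Syk* from -0.0049 to 0.40. The median of the 9 lay between -0.050 and 0.13 with a replicate left out. The replicate block changed no call: without it 0 genes passed as well and the log2 fold change of *Syk* was 0.22 (adjusted p = 1.00 in limma).

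Over all genes, DESeq2 called 23 lower and 1 higher, and leaving out a replicate gave 0 to 168 lower and 0 to 3 higher, the most without replicate 1. Of the other pathway genes at an unadjusted p under 0.05, the 6 higher became 2 in DESeq2 and 2 without the replicate block. The 4 lower became 1 in DESeq2 and 2 with quantile normalization. Over all 12322 genes, the 206 higher at that threshold became 126 without the block, and 33 of 8413 in DESeq2. The 373 lower became 194 of 8413 in DESeq2 and 336 with quantile normalization. With a replicate left out, the other pathway genes at that threshold were 3 to 7 higher and 1 to 8 lower, beside 143 to 245 higher and 292 to 627 lower over all genes. Without WT replicate 3 and with no block, the other pathway genes were 0 higher and 2 lower, beside 97 and 91 over all genes. The cause was not tested. Depth limits *Btk* most, with a counting error of up to 0.10 on a log2 ratio.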
